A study of Mus musculus with 8 samples.

Results

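The genes described here are the members of the mouse Hox clusters, taken as every gene whose symbol is Hoxa, Hoxb, Hoxc or Hoxd followed by a number alone, which gave 39 of the 20207 genes in the expression tables. Their mRNA levels were measured by RNA sequencing in 8 libraries of bone marrow cells sorted from normal mice and from mice with a chronic myelogenous leukaemia (CML)-like disease. The question of the original experiment was which genes differ between CML stem cells, normal haematopoietic stem cells (HSCs) and their progenitors. According to the study's methods, disease was induced in Tal1-tTA × TRE-BCR-ABL1 double-transgenic mice, in which withdrawal of doxycycline (DOX) lets a tet-regulated activator, driven by Tal1 regulatory sequences in haematopoietic stem and progenitor cells, switch on the BCR-ABL1 oncogene. In the same methods the healthy littermate controls carry Tal1-tTA alone and also had DOX withdrawn, and the background is FVB/N, whereas the sample labels name C57BL/6 for all 8 libraries.

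Normal mice gave 2 long-term HSC (LT-HSC) libraries, 1 short-term HSC (ST-HSC) library and 1 library of KLS- progenitors. CML-affected mice gave 2 LT-CML stem cell libraries, 1 ST-CML library and 1 CML-KLS- library. KLS+ stands for cKit+Lineage-Sca-1+ cells and KLS- for cells that lack Sca-1 (cKit+Lineage-Sca-1-). LT cells were sorted as CD150+CD48-CD135-KLS+ and ST cells as CD150-CD48-CD135-KLS+. The labels give an age of 2 months for LT-HSC replicate 1, ST-HSC and normal KLS-, and of 6 months for LT-HSC replicate 2, and they give no age for the CML libraries. The sources used here do not say how many animals went into a library, so the p-values measure the spread between these libraries, and the ST and KLS- populations have 1 library for each kind of mouse.

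Hox genes encode homeodomain transcription factors and lie in 4 clusters, where gene order follows the order of expression along the body axis of the embryo. In blood, genes of the Hoxa and Hoxb clusters are known to be active in stem and early progenitor cells and to be shut down during differentiation. Their proteins bind DNA together with cofactors of the TALE class (Meis, Pbx and Pknox proteins), and the histone methyltransferase MLL (Kmt2a) with its partner menin keeps Hoxa genes active, a route taken over by MLL fusion proteins in acute leukaemia.

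Values are RPKM, reads per kilobase of transcript scaled to the mapped reads of the library, which is a level per length. Comparing genes by it rests on the gene models used and on even coverage along transcripts. The study's methods describe oligo-dT priming, and coverage was not examined, so rankings between Hox genes carry this limit. The RPKM steps of low genes corresponded to an estimated 17800000 to 23900000 reads per library, at which 3 reads on a gene of 1 kb are worth 0.126 to 0.168 RPKM. Some sort gates were visible in the marker genes and others were not. The summed RPKM of 5 LT markers (Slamf1, Procr, Hlf, Mecom and Fgd5) was 85.5 to 145 in the 6 LT and ST libraries and 3.89 and 5.28 in the KLS- libraries, and Slamf1, which encodes CD150, was 10.7 to 35.5 in LT cells and 1.11 and 2.87 in ST cells. Libraries of 1 population differed in genes that mark other cells, and whether such cells were present was not tested. The sum of 5 measured neutrophil genes was 3855 RPKM in LT-HSC replicate 2 and 12.7 to 1003 elsewhere, and the sum of 4 myeloid progenitor genes was 2827 in LT-CML replicate 2 against 95.2 in LT-CML replicate 1, and 1766 in ST-CML against 243 in ST-HSC. Ddx3y, which lies on the Y chromosome, stood at 31.0 RPKM in LT-HSC replicate 2, at 17.5 in LT-CML replicate 2 and at no more than 0.0625 in any other library. B cell, T cell and stromal marker sums reached at most 9.52, 3.27 and 6.78 RPKM, erythroid sums 6.63 to 91.9 and megakaryocyte sums 20.8 to 412.

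Hox transcripts of these cells came almost wholly from a subset of the Hoxa and Hoxb genes. Of the 39 members, 12 reached a total above 1 RPKM over the 8 libraries, the limit for testing that 12561 genes of the tables passed. They were 8 of the 11 Hoxa genes (Hoxa2 to Hoxa7, Hoxa9 and Hoxa10) and 4 of the 10 Hoxb genes (Hoxb2 to Hoxb5), with 0 of 9 Hoxc and 0 of 9 Hoxd genes. The Hoxa cluster lies on chromosome 6, and its summed RPKM in the LT and ST libraries was 19.6 to 32.1. The Hoxb cluster (chr11:96055630-96229570 in mouse build mm9, 173.9 kb) summed to 3.44 to 7.69 RPKM in the same libraries. By contrast, the Hoxc cluster (chr15:102751534-102867274) summed to at most 0.210 RPKM and the Hoxd cluster (chr2:74506367-74603200) to at most 0.164 RPKM in any library.

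**Figure D1:**
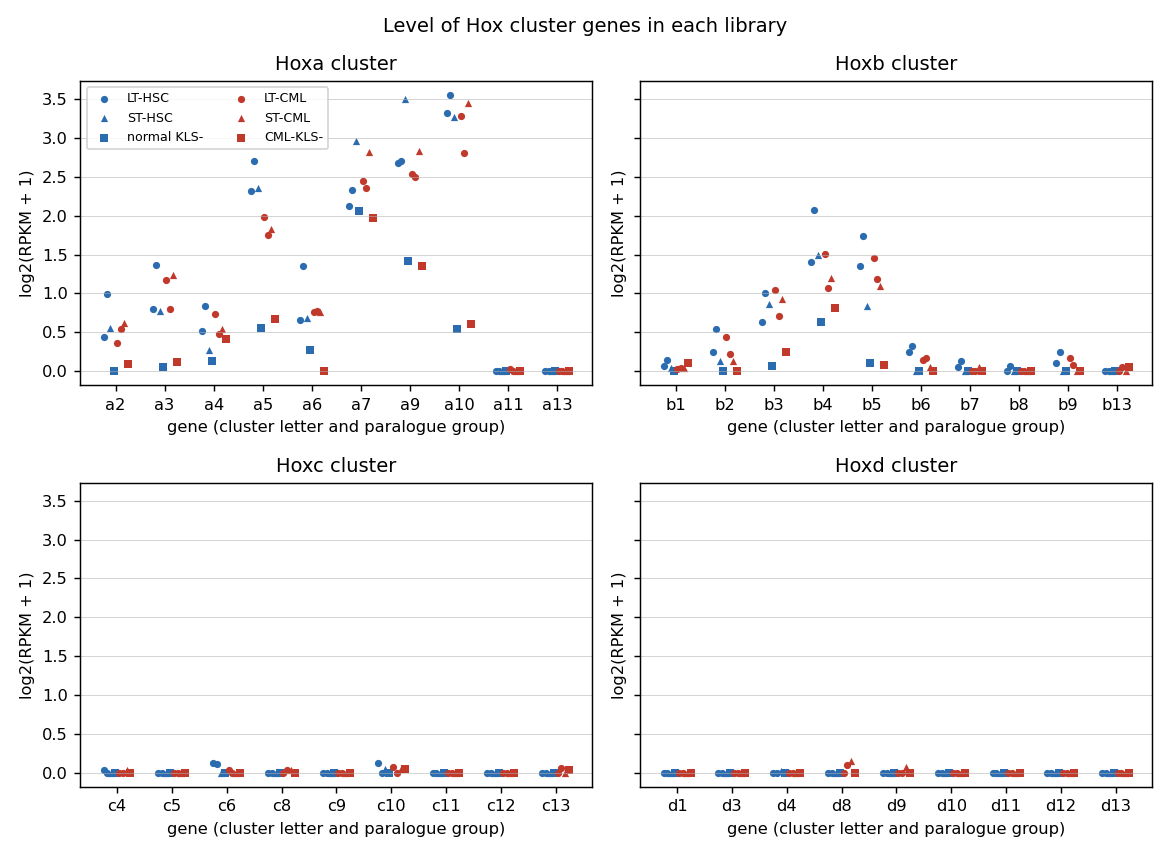
Level of Hox cluster genes, as log2(RPKM + 1), in the order of paralogue groups within the 4 clusters; each point is 1 library, blue for normal and red for CML-affected mice, with circles for LT, triangles for ST and squares for KLS- cells. Signal lies mostly between Hoxa2 and Hoxa10 in the Hoxa panel and between Hoxb2 and Hoxb5 in the Hoxb panel, and lies close to 0 in the Hoxc and Hoxd panels.

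Of the 27 members below the limit, 11 were listed at 0 in all 8 libraries (Hoxa13, Hoxc5, Hoxc9, Hoxc11, Hoxc12, Hoxd1, Hoxd3, Hoxd10, Hoxd11, Hoxd12 and Hoxd13). The others reported here never exceeded 0.253 RPKM, the value of Hoxb6 in LT-HSC replicate 2, and rested on 1 to 26 reads over all 8 libraries. Expression below a few reads per library was therefore not detectable at this depth. A pair of further Hoxb genes, named after their values were seen, had reads in the 4 LT libraries and few elsewhere. Hoxb9 had 4 and 12 reads in LT-HSCs, 7 and 3 in LT-CML stem cells and 0 in each ST and KLS- library, and Hoxb6 had 5, 8, 3 and 3 reads in LT cells, 0 and 1 in ST cells and 0 in KLS- cells. The share of all genes with this pattern was not computed. In a limma test of LT against ST cells without the limit on low values, 0 of 28 Hox members had an adjusted p under 0.05. Of all 18513 genes, 159 were higher and 124 lower in LT cells.

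The bulk of the signal came from 4 genes of the Hoxa cluster, all on the minus strand of chromosome 6 in mm9: Hoxa5 (chr6:52151753-52154586), Hoxa7 (chr6:52164490-52171853), Hoxa9 (chr6:52173099-52181088) and Hoxa10 (chr6:52181196-52190853). Together they made up 66.8% to 85.1% of the summed Hox RPKM of a library. The 250 bases before their transcription starts are shown, from RefSeq on GRCm38.p6 and read 5′ to 3′ along the minus strand, because these starts lie within one short stretch of chromosome yet the genes differed in how steeply their mRNA fell in progenitors. Capitals mark CG dinucleotides, the sites of DNA methylation in mammals, and Hoxa10 has a pair of annotated starts. Allowing for the shift between builds, the RefSeq starts of Hoxa7 and Hoxa9 lie inside their mm9 spans given above. Their windows are therefore not at the 5′ ends of those spans.
Hoxa5 (chr6:52204588-52204837): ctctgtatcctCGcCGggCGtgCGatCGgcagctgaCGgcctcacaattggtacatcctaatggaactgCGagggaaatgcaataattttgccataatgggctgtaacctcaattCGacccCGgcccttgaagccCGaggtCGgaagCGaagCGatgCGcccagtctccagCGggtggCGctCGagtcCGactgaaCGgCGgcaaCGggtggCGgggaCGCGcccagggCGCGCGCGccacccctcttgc
Hoxa7 (chr6:52218574-52218823): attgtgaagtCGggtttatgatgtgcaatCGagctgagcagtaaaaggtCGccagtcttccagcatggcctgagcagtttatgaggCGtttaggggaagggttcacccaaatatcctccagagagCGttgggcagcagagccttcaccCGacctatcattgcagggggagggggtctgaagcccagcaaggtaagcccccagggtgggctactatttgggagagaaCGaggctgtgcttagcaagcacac
Hoxa9 (chr6:52227371-52227620): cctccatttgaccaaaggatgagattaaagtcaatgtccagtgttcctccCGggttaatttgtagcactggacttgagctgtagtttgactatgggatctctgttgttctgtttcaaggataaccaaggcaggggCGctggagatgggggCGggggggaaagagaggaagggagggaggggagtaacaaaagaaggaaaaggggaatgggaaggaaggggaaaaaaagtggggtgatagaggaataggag
Hoxa10, inner start (chr6:52234940-52235189): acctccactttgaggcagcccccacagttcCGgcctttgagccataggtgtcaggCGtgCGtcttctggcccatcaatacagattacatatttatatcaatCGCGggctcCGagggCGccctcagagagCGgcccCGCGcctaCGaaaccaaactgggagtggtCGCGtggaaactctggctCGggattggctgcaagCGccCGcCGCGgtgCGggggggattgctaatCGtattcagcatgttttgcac
Hoxa10, outer start (chr6:52240855-52241104): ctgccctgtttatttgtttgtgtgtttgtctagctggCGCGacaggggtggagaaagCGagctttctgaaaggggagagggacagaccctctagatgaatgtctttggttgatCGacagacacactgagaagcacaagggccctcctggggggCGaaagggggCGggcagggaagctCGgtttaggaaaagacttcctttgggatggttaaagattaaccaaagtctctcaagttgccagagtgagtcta

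CG dinucleotides were frequent before Hoxa5 (28 in the printed bases) and the inner start of Hoxa10 (20) and sparse before Hoxa9 (3), with 7 before Hoxa7 and 7 before the outer start of Hoxa10. RefSeq gave 24 windows of 300 bases (250 before and 50 after the start) for 22 of the 39 members. These windows held between 4 and 45 CG, and the median was 14 in the 9 windows of tested members and 15 in the 15 windows of members below the limit, against 7 over all 32851 windows. The letters TGATNNAT, a core bound by Pbx and Hox proteins together, occurred on either strand in 4 of the 24 windows (16.7%; Hoxa2, Hoxb1, Hoxb8 and Hoxd11) and in 8.85% of all windows. The Meis core TGACAG occurred on either strand in 2 (8.33%; Hoxa2 and Hoxa3) and in 19.2% of all windows, and neither was in the printed stretches.

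Loss of Hox RNA from stem cells to KLS- progenitors was the main pattern. In the 6 LT and ST libraries the 39 genes summed to 23.2 to 38.6 RPKM, and in the KLS- libraries to 6.81 (normal) and 7.34 (CML). Of the 12 tested genes, 10 were higher in LT and ST cells than in KLS- cells and 0 were lower at an adjusted p under 0.05 (limma on log2(RPKM + 1) with disease as a term, 6 against 2 libraries, Benjamini-Hochberg over all genes tested). In the same contrast 26.5% of all tested genes were higher and 22.2% lower. The median difference was 0.71 for the 12 Hox genes and 0.08 for all genes tested. Without the limit on low values, 28 members could be tested, of which 9 were higher, where 3060 of all 18513 genes were. The medians were then 0.10 for the 28 members and 0.02 for all genes. Members that passed the limit passed it mainly through their stem cell libraries, so these counts do not describe the other 27. For 11 of the 12, the exception being Hoxa4, every LT and ST library lay above both KLS- libraries, a pattern shared by 27.7% of all genes tested. In bulk samples such as these, fewer cells expressing a gene and less RNA of it per cell cannot be told apart.

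Hoxa10, a posterior gene known to disturb blood cell differentiation when overexpressed, was the most abundant Hox mRNA in 5 of the 6 LT and ST libraries. It stood at 9.01 and 10.7 RPKM in LT-HSCs, 8.67 in ST-HSCs, 8.70 and 6.00 in LT-CML stem cells and 9.94 in ST-CML cells. In KLS- cells it was 0.457 (normal) and 0.520 (CML). No stem cell library came near the progenitor values, and the means differed 18.1-fold, with a difference of 2.73 ± 0.19 (SE) on the log2(RPKM + 1) scale and an adjusted p of 2.53e-05.

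Hoxa9, the classical partner of Meis1 in leukaemia and a gene needed for full repopulating capacity of HSCs, stood at 5.38 and 5.51 RPKM in LT-HSCs and 10.4 in ST-HSCs. It was 4.81 and 4.64 in LT-CML stem cells, 6.14 in ST-CML cells, and 1.67 (normal) and 1.56 (CML) in KLS- cells. Its fall in progenitors was shallower than that of Hoxa10, at 3.80-fold between means (1.50 ± 0.15, adjusted p = 0.000138). In the mm9 annotation its exons overlap Mir196b and a pair of transcripts known only by clone names on the same strand, and how shared reads were counted is not given in the sources used here.

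Hoxa5, which biases progenitors towards the myeloid lineage when overexpressed, stood at 3.98 and 5.49 RPKM in LT-HSCs, 4.11 in ST-HSCs, 2.96 and 2.37 in LT-CML stem cells and 2.54 in ST-CML cells. In KLS- cells it fell to 0.473 (normal) and 0.598 (CML), a 6.67-fold difference of means (1.52 ± 0.19, adjusted p = 4e-04).

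Hoxa7, a target of MLL, kept the highest Hox level in KLS- cells. It was 3.37 and 4.03 RPKM in LT-HSCs, 6.79 in ST-HSCs, 4.43 and 4.11 in LT-CML stem cells and 6.08 in ST-CML cells. It remained at 3.19 (normal) and 2.94 (CML) in KLS- cells. A search over transcript lengths put these KLS- values at an estimated 126 and 102 reads. The groups did not overlap, but the lowest LT value lay only just above the higher KLS- value. In the mm9 annotation the exons of Hoxa7 overlap 2700086A05Rik on the opposite strand, and the handling of strand in counting is not given in the sources used here. The means differed 1.57-fold (0.58 ± 0.14, adjusted p = 0.00867; without the CML-KLS- library the adjusted p was 0.117).

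**Figure D2:**
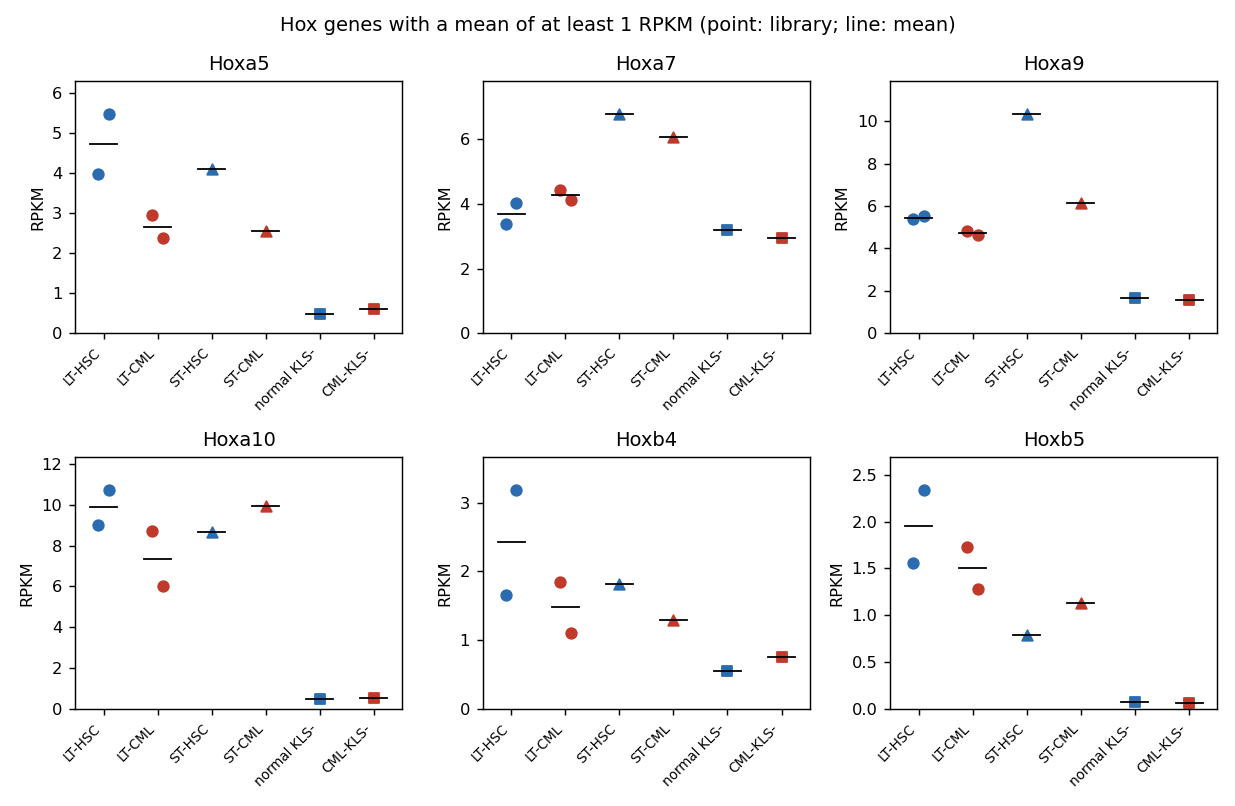
RPKM of the 6 Hox genes with a mean of at least 1 RPKM, by sorted population; each point is 1 library (blue normal, red CML; circles LT, triangles ST, squares KLS-) and each line the mean of a population. Hoxa10 and Hoxb5 are near 0 in both KLS- libraries, whereas Hoxa7 stays at 3.19 and 2.94 RPKM there.

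The composition of Hox RNA also differed between stem cells and progenitors. Hoxa7 made up 10.5% to 19.3% of the summed Hox RPKM in the LT and ST libraries and was the most abundant Hox mRNA in both KLS- libraries, at 46.8% (normal) and 40.0% (CML). Hoxa10 went from 24.3% to 31.5% in the stem cell libraries to 6.7% and 7.1% in KLS- cells, while the share of Hoxa9 (14.3% to 29.0%) overlapped with its share in KLS- cells (24.6% and 21.2%). The log2 ratio of Hoxa10 to Hoxa7, which does not depend on the scaling of a library, was 0.35 to 1.42 in the 6 stem cell libraries and -2.80 and -2.50 in the KLS- libraries. An exact two-sided permutation test of this ratio, which doubles the smaller tail probability, gave p = 0.0714. That is the smallest value this doubling allows for 6 against 2 libraries, so the test as run could not pass 0.05. The log2 ratio of Hoxa9 to Hoxa7 was 0.01 to 0.68 in stem cells against -0.93 and -0.92, with the same exact p. Both ratios were chosen after the values were seen.

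**Figure D3:**
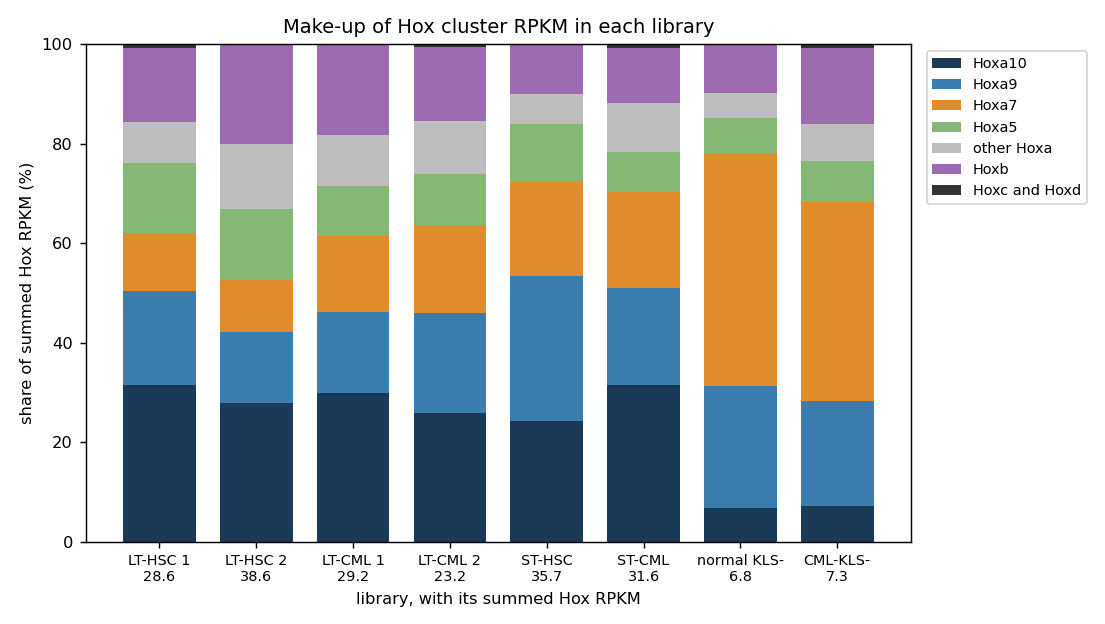
Share of each gene or group of genes in the summed RPKM of the 39 Hox genes, in percent, for the 8 libraries, with the summed Hox RPKM under each name. Hoxa10 takes the largest single-gene segment in 5 of the 6 stem cell bars and Hoxa9 in that of ST-HSCs, while in both KLS- bars Hoxa7 takes the largest segment and Hoxa10 a small one.

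The Hoxb genes gave lower levels with a similar drop. Hoxb5 (chr11:96163909-96167434), used as a reporter of LT-HSCs in mice, stood at 1.56 and 2.34 RPKM in LT-HSCs, 0.786 in ST-HSCs, 1.73 and 1.27 in LT-CML stem cells and 1.13 in ST-CML cells. It was 0.0781 and 0.0592 in normal and CML-KLS- cells, from 3 and 2 reads. Its annotated exons overlap 0610040B09Rik on the opposite strand. Its mean was 21.4 times higher in stem cells (1.10 ± 0.16, adjusted p = 0.00074), a ratio that rests on those few reads.

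Hoxb4 (chr11:96177998-96182952), which expands HSCs when overexpressed, was 1.66 and 3.19 RPKM in LT-HSCs, 1.81 in ST-HSCs, 1.85 and 1.11 in LT-CML stem cells and 1.29 in ST-CML cells. With 0.544 and 0.753 RPKM it remained measurable in normal and CML-KLS- cells, and the groups did not overlap. Its means differed 2.80-fold (0.71 ± 0.22, adjusted p = 0.0239), but the call was lost without the normal KLS- library (adjusted p = 0.296), without ST-HSC (0.058) or without ST-CML (0.0554).

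Among the 6 tested members with a mean under 1 RPKM, 4 passed the test. Hoxa3 was 0.718 to 1.58 RPKM in stem cells and 0.0392 and 0.0891 in KLS- cells (0.93 ± 0.19, adjusted p = 0.00382), and Hoxb3 was 0.545 to 1.06 against 0.0447 and 0.186 (0.72 ± 0.14, adjusted p = 0.00328). Hoxa6 was 0.574 to 1.56 RPKM against 0.212 and 0 (adjusted p = 0.0136), and Hoxa2 was 0.287 to 0.996 against 0 and 0.0668 (adjusted p = 0.0221). Both lost the call without either KLS- library, with adjusted p between 0.066 and 0.204, and Hoxa2 also without ST-CML (0.0698). Hoxa4 (0.209 to 0.795 against 0.0969 and 0.331) and Hoxb2 (0.098 to 0.463, listed at 0 in both KLS- libraries) did not pass, with adjusted p of 0.165 and 0.0963. Hoxa2 and Hoxa3 share annotated exons on the same strand, so the division of their reads is uncertain. On the opposite strand, Hoxa3 exons overlap 2700086A05Rik, and those of Hoxb2 and Hoxb3 overlap Hoxb3os.

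Genes known to act with or upstream of Hox proteins were read in the same contrast. Of the 8 TALE cofactor genes reported here, 6 were tested, 2 were higher in stem cells and 0 lower, with a median difference of 0.31. Meis1, the Hoxa9 cofactor, was 105 to 166 RPKM in stem cells and 20.0 and 9.93 in KLS- cells (3.16 ± 0.17, adjusted p = 9.04e-06). Pbx3 was 0.889 to 2.50 against 0.454 and 0.375 (0.64 ± 0.18, adjusted p = 0.0159). The call for Pbx3 was lost without either KLS- library (adjusted p of 0.135 without the normal and 0.0827 without the CML one) and without ST-CML (0.0568).

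Of 12 upstream regulators, 9 were tested, 3 were higher in stem cells and 0 lower, with a median difference of 0.16; both lists are small, and their counts are to be read against the 26.5% of all tested genes that were higher. The MLL gene itself (listed as Mll1) was 9.26 to 13.0 RPKM in stem cells against 4.49 and 3.45 (1.22 ± 0.15, adjusted p = 0.000349). Both other genes that rose encode parts of the elongation machinery joined to MLL in leukaemic fusions: Mllt3 (2.16 ± 0.28, adjusted p = 0.000418) and Aff4 (1.22 ± 0.15, adjusted p = 0.000379). Men1, which encodes menin, stood at 5.52 to 9.55 RPKM in stem cells and at 6.70 and 11.3 in KLS- cells. Cdx1, Cdx2 and Cdx4, activators of Hox genes in the embryo, were at 0.0689 RPKM or less in every library and were not tested.

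Between LT and ST stem cells, 0 of the 12 genes passed the threshold (limma, 4 against 2 libraries, same fit), where 4.87% of all tested genes did. At an unadjusted p under 0.05 there were 3 of the 12 and 2456 of 12561 genes. Hoxa7 was 6.08 and 6.79 RPKM in ST cells and 3.37 to 4.43 in LT cells, with no overlap and a ratio of means of 1.61. Its difference of LT minus ST was -0.58 ± 0.15 with an adjusted p of 0.0612, which fell to between 0.0402 and 0.0463 when only genes with a mean of at least 1 RPKM were tested, when the libraries were quantile normalized or when the test used no intensity trend. It rose to 0.115 without a limit on low values, 0.0951 on the 6 LT and ST libraries alone, 0.25 without ST-CML and 0.477 without ST-HSC. Hoxa9 lay in the same direction (6.14 and 10.4 in ST, 4.64 to 5.51 in LT cells, -0.57 ± 0.16, adjusted p = 0.0851), but without ST-HSC its difference was -0.30 (adjusted p = 0.663). Exact permutation tests of the RPKM of Hoxa7 and of Hoxa9 each gave p = 0.133. That is the smallest value for 4 against 2 libraries when the smaller tail probability is doubled.

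Hoxb5 pointed the other way, with 1.27 to 2.34 RPKM in LT and 0.786 and 1.13 in ST cells (0.47 ± 0.17, adjusted p = 0.161), and its difference was 0.26 (adjusted p = 0.749) without ST-HSC. Hoxb2 also had no overlap (0.169 to 0.463 in LT, 0.098 and 0.0988 in ST cells, adjusted p = 0.332), whereas LT and ST values of the other 8 tested members overlapped. Of all genes tested, 24.2% had no overlap between LT and ST libraries. For Hoxa10 the LT minus ST difference was -0.12 with a 95% confidence interval of -0.57 to 0.33. Of the upstream regulators Psip1, which tethers MLL and menin to chromatin, was higher in LT cells (20.8 to 28.3 against 20.4 and 12.2 RPKM, 0.60 ± 0.13, adjusted p = 0.0354). That call was lost on leaving out any library but LT-HSC replicate 2, with adjusted p up to 0.373 without ST-CML.

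**Figure D4:**
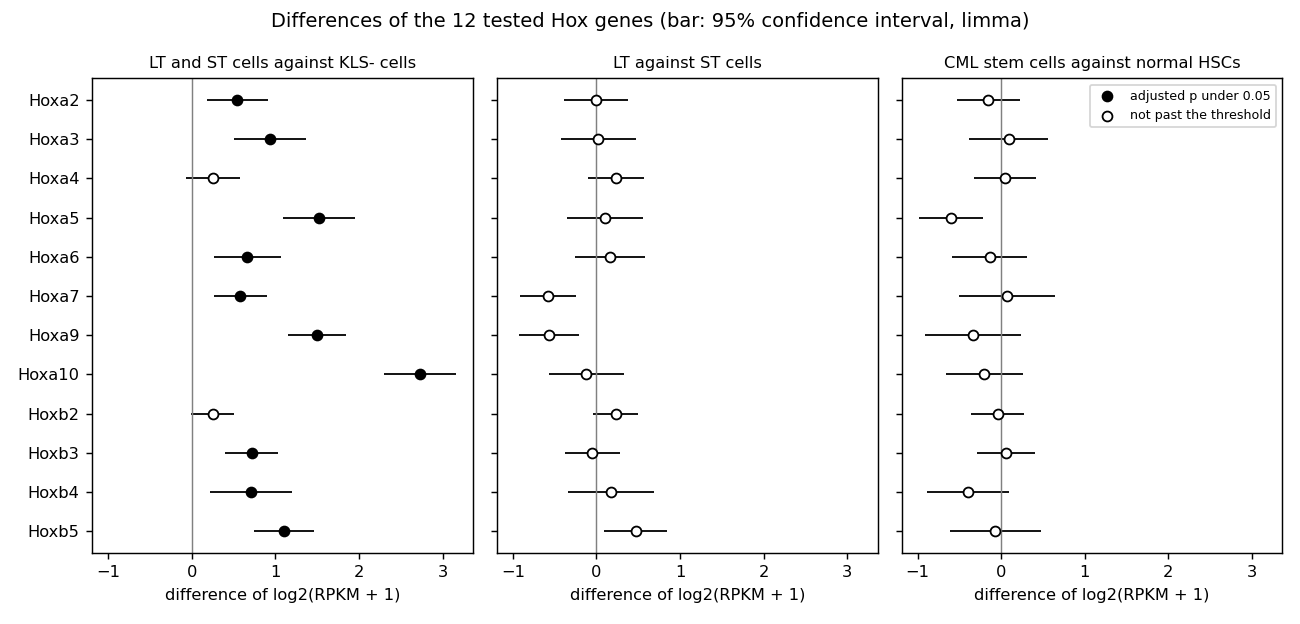
Difference of log2(RPKM + 1) for the 12 tested Hox genes in 3 comparisons (stem cells against KLS- cells, LT against ST cells, CML stem cells against normal HSCs); points are limma estimates, bars 95% confidence intervals, and filled points have an adjusted p under 0.05. All 12 estimates lie above 0 in the first panel, 10 of them filled, and 0 points are filled in the others.

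Between CML stem cells and normal HSCs the Hox genes did not pass the test in either direction. Pooling LT and ST libraries (3 against 3), 0 of the 12 members were called, where 2.34% of all tested genes were (294 genes); at an unadjusted p under 0.05 there were 1 of the 12 and 1573 genes. The median difference of CML minus normal was -0.10 for the Hox genes and -0.04 for all genes tested. The comparisons of stem cells with progenitors, of LT with ST cells and of CML with normal cells use the same libraries and are not independent.

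Hoxa5 was the member with the smallest p and the 1 of 12 whose CML and normal values did not overlap, a separation that 18.3% of all genes tested showed. CML stem cells held 2.62 ± 0.303 RPKM of Hoxa5 (SD, n = 3; 2.37 to 2.96) and normal HSCs 4.53 ± 0.835 (SD, n = 3; 3.98 to 5.49). The ratio of means was 0.580 and the difference -0.60 ± 0.16, with an adjusted p of 0.147 that ranged from 0.0896 to 0.384 over the alternatives run. An exact permutation test of the RPKM gave p = 0.1, the smallest that 3 against 3 libraries can give. In KLS- cells, where each kind of mouse has 1 library, Hoxa5 was 0.12 higher in CML on the log2(RPKM + 1) scale. The test of the CML difference in stem cells against that in KLS- cells gave -0.70 ± 0.36 for Hoxa5 with an adjusted p of 1, and it called 0 of the 12 Hox genes and 0.0239% of all genes (3 genes); at an unadjusted p under 0.05 there were 0 of the 12 and 400 genes.

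For the remaining abundant members the intervals were wide. The CML minus normal difference was -0.20 (95% confidence interval -0.66 to 0.26) for Hoxa10, -0.34 (-0.91 to 0.24) for Hoxa9, 0.07 (-0.51 to 0.64) for Hoxa7, -0.40 (-0.89 to 0.10) for Hoxb4 and -0.07 (-0.61 to 0.48) for Hoxb5, on the log2(RPKM + 1) scale. These estimates moved with single libraries: Hoxa9 was at -0.0655 without ST-HSC, Hoxb4 at -0.19 without LT-HSC replicate 2 and Hoxa10 at -0.0185 without LT-CML replicate 2, and leaving out 1 library changed the sign for Hoxa7 (-0.11 to 0.31) and Hoxb5 (-0.31 to 0.15). Within LT cells alone (2 against 2) 0 of the 12 were called and 1.73% of all genes, and at an unadjusted p under 0.05 there were 1 of the 12 and 1452 genes. There Hoxa5 differed by -0.64 ± 0.22 (adjusted p = 0.285) and Hoxa10 by -0.40 ± 0.23 (adjusted p = 0.62), the latter being -0.16 without LT-CML replicate 2. In ST cells, with 1 library each, Hoxa9 was 0.67 and Hoxa5 0.53 lower in CML and Hoxa3 0.46 higher, and in KLS- cells all 12 differences lay between -0.28 and 0.28. None of these single-library differences passed 1, a size that 2.03% of genes exceeded upwards and 2.01% downwards in ST cells, and 1.85% and 1.39% in KLS- cells.

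The LT-HSC library labelled with an age of 6 months carried the highest value of many members. Of the 12 tested genes, 9 had their highest level there, as did 17.4% of all genes tested. Age among the labelled libraries and the neutrophil sum (3855 RPKM) also set this library apart. It shared Ddx3y RNA (31.0 RPKM) with LT-CML replicate 2 (17.5 RPKM). The part of age, Ddx3y and the neutrophil genes in the result was not tested. Without it, 7 of the 12 CML minus normal differences were positive in place of 4, and the median went from -0.10 to 0.04, with 0 members called.

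Among the 6 tested cofactor genes reported here, 1 was called between CML stem cells and normal HSCs, where 2.34% of all tested genes were. With 3 against 3 libraries, a missed threshold does not show that the others were unchanged. The cofactor called was Pbx4. It stood at 3.05 and 3.48 RPKM in LT-HSCs and 4.03 in ST-HSCs. In LT-CML stem cells it was 0.466 and 0.367 and in ST-CML cells 0.478. The groups did not overlap, a separation that 18.3% of all genes tested showed. The difference was -1.65 ± 0.13 (adjusted p = 0.0012), and within LT cells -1.59 ± 0.17 (adjusted p = 0.00694). In LT cells the call was lost on leaving out any 1 of the 4 LT libraries, which leaves an arm with 1 library (adjusted p of 0.0771 and 0.0517 without a normal, 0.115 and 0.154 without a CML library). Pbx4 was 2.93 in normal and 1.125 in CML-KLS- cells. Meis3, a cofactor of low level, was 0.389 to 0.964 RPKM in normal HSCs and 0.0271 to 0.0603 in CML stem cells, with an adjusted p of 0.0742. Of the upstream regulators 0 of 9 were called between CML stem cells and normal HSCs, where 2.34% of all tested genes were. In LT cells alone 0 of 9 were called, and 1.73% of all tested genes. With 9 genes and shares this low, a count of 0 does not show that the regulators were unchanged.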

How the data were processed

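RNA from sorted cells was amplified with the SMARTer Ultra Low Input RNA Kit. The authors deposited 1 table per library with gene-level RPKM, from reads mapped to mm9 with SeqNova CS (DNAnexus) according to the study's methods. The counting rule and its handling of strand are not given in the sources used here. RPKM was used as deposited. Genes with a total above 1 RPKM over 8 libraries (12561 of 20207) were tested with limma 3.58.1 (R 4.3.3, lmFit and eBayes with trend) on log2(RPKM + 1), with Benjamini-Hochberg adjustment over all of them, a threshold of 0.05 and, for LT, ST and KLS- contrasts, disease as a term. Folds on this scale understate the change of low genes. Scripts were tested on simulated data. Single values were compared by exact two-sided permutation tests, which double the smaller tail probability (Python 3.11.15, scipy 1.17.1). Intervals of limma are 95% confidence intervals. For low genes the RPKM step of 1 read gave depth and reads. The reads of Hoxa7 came from a search for the transcript length that best gave whole reads, and are estimates. Of 4197 low genes, 83.2% lay on whole multiples within 0.02 reads plus 0.06%, so depth is an estimate. All Hox genes were accounted for, and those with a mean of at least 1 RPKM were given library by library. Members and lists were chosen with earlier results of these data known. Gene positions come from GENCODE M1 on mm9 and promoters from RefSeq on GRCm38.p6. A planned description of homeodomains was not made, and some items are not reported here. Alternatives were other pseudocounts, filters, scalings and model terms, and leaving out each library.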

Additional observations from a re-analysis of the deposited data

Results flagged for a closer look

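Among groups of 4 or 6 libraries, 5 of 24 checks for a single library far from the others gave a hit (a gap over range above Dixon's 95% critical value). The nominal rate is about 1 in 20, but the 4 LT libraries are part of the 6, so the checks are not independent. The share of all genes with such a hit was not computed, and 17.4% of all genes tested were highest in LT-HSC replicate 2. In LT-HSC replicate 2, Hoxa6 stood at 1.557 RPKM while the other LT and ST libraries lay between 0.574 and 0.707, which made it a hit both among the 4 LT and among the 6 LT and ST libraries. In the same library Hoxa2 stood at 0.996 (others 0.287 to 0.543) and Hoxb4 at 3.191 (others 1.106 to 1.852). Hoxa9 was the remaining hit, with 10.35 RPKM in ST-HSCs and 4.641 to 6.14 in the other stem cell libraries.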

How the results depend on the processing

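Of the 12 tested Hox genes, 10 were higher in stem cells than in KLS- cells, as were 3332 of all 12561 genes. The count was 6 of 6 when only genes with a mean of at least 1 RPKM were tested (2684 of all 10033), which leaves fewer genes. It was 9 of 28 without a filter (3060 of all 18513) and 9 after quantile normalization (2599 of all 12561). With a pseudocount of 0.1 it was 11 (3617 of all 12561), where Hoxb2 was added. Leaving out 1 library gave 7 to 10, with 7 without either KLS- library. Hoxa3, Hoxa5, Hoxa9, Hoxa10, Hoxb3 and Hoxb5 passed under every alternative that tested them, and Hoxb4 lost its call without a filter (adjusted p = 0.0653) and after quantile normalization (0.154), as did Pbx3 (0.127). Between LT and ST cells the count went from 0 to 1 (Hoxa7) with the mean filter, quantile normalization or no trend; the cause was not tested. Without both second LT libraries, chosen after seeing the data, the CML minus normal difference turned to 0.0664 for Hoxa10 and 0.17 for Hoxb5. Leaving out 1 library, it ranged from -0.11 to 0.31 for Hoxa7 and -0.31 to 0.15 for Hoxb5, and LT minus ST from -0.021 to 0.1883 for Hoxa5 and -0.3327 to 0.0882 for Hoxa10. Pbx4 missed the threshold without both second LT libraries (adjusted p = 0.0562), and within LT cells without a filter (0.185). Over all genes, calls between CML and normal stem cells ranged from 38 to 776 (294 as reported), within LT cells from 0 to 248 (217), between LT and ST cells from 110 to 790 (612) and against KLS- cells from 3178 to 6494 (6123). The test of stem cells against KLS- cells for a differing CML effect could not be fitted without a single ST or KLS- library. No paired analysis was possible because the normal libraries carry ages, not replicate numbers. Single ST and KLS- libraries and counts of a few reads limit the low Hox genes.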
